A study of Mus musculus with 55 samples.

Results

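In macrophages stimulated with lipopolysaccharide (LPS), 65 of 97113 open chromatin regions carried histone H3 lysine 27 acetylation (H3K27ac) that was high at 6 h and had stayed low at 2 h. A region was counted as late when, in replicate 1 and in replicate 2 each, its H3K27ac value at LPS 6 h was at least 3 times the PBS 2 h value plus 1 and at least 10, while its value at LPS 2 h was below 2 times the PBS 2 h value plus 1. Values are sequencing tags in a 1000 bp window around the region, scaled to 10000000 tags of the library, as the authors deposited them, and are called normalised tags here. The regions were therefore chosen on their LPS 6 h, LPS 2 h and PBS 2 h H3K27ac, and these values are given below as a description without a test. The same readout gave 1512 sustained regions, with LPS 2 h and LPS 6 h both past the 3-fold and 10-tag limits, and 68 transient regions, with LPS 2 h past them and LPS 6 h below 2-fold.

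The cells were bone marrow-derived macrophages of C57BL/6 mice, grown from marrow in L-cell conditioned medium, a source of M-CSF, and starved of serum overnight before treatment. They received LPS at 10 ng/ml, 3'-sialyllactose (3'SL, a sialylated human milk oligosaccharide) at 100 µg/ml together with LPS at 10 ng/ml, 3'SL alone at 100 µg/ml, or the vehicle PBS. Each of LPS, 3'SL + LPS and 3'SL had 2 libraries at 6 h and 2 at 2 h for H3K27ac and again for p300. PBS libraries were counted only where a column of values matched them. H3K27ac had 2 read as 2 h, 1 at 6 h (replicate 2) and 1 in replicate 1 without a stated time. The p300 libraries of PBS were 1 at each time (replicate 2). Further PBS libraries of replicate 1 are listed in the series: p300 ones read as 2 h, 6 h and untimed, and an H3K27ac one of 6 h. No column was matched to them, so they were not used. The replicate 1 PBS column read as 2 h could also be a running number of vehicle libraries, and the replicate 1 H3K27ac libraries titled 2 h for LPS, 3'SL and 3'SL + LPS carry a treatment label of 1 h, so 2 h in replicate 1 may stand for 1 h. The replicate 2 libraries titled 3'SL + LPS at 2 h and at 6 h carry input source names, and the 2 h one also a vehicle treatment label; titles were followed, and leaving these libraries out is covered with the tests. Labels do not say whether replicates were separate cultures or mice, so p-values measure the spread between these libraries.

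Acetylation of H3 lysine 27 is found at promoters and enhancers in use, and p300 is one of the enzymes that deposit it. LPS is sensed by Toll-like receptor 4, which first activates NF-kB and AP-1 factors already present in the cell and then, through newly made cytokines and transcription factors, a later wave of interferon and secondary response genes. Enhancers of macrophages are held open by the lineage factor PU.1 together with AP-1 and C/EBP factors.

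The H3K27ac libraries held 4200716 to 39597624 tags, with 15457546 and 7421398 at LPS 6 h, and 42.6% to 79.3% of tags fell in the windows against 8.65% to 8.85% in input. The p300 libraries were shallower at the low end, 3199270 tags in the PBS 2 h library, with 20.1% to 27.5% in 200 bp windows in replicate 2 and 6.12% to 9.42% in replicate 1. Starts of all 8 macrophage marker genes examined carried H3K27ac of 98.2 to 598 normalised tags averaged over vehicle libraries. None of 4 T cell and 4 B cell markers had an open start region, and those present for dendritic cells, fibroblasts and epithelium stood at 4.03 or less. Of 4 neutrophil markers only S100a8 had an open start, at 29.8, and its part in the results was not tested.

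A set of 6 sequences is shown to place the late regions in the genome before their values: 5 among the 10 nearest genes with the highest LPS 6 h values, each holding a searched motif, and 1 at a gene start. Each is 200 bases centred on the open chromatin region, plus strand, NCBI RefSeq build GRCm38 (mm10), with searched motif matches in capitals.
Zfat, chr15:67992469-67992668, a C/EBP match (TTGCNNAA): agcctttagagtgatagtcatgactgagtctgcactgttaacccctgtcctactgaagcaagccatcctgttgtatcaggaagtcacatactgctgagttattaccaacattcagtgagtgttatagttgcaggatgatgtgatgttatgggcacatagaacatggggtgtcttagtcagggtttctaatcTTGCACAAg
Slc23a2, chr2:132169078-132169277, overlapping PU.1-IRF composite and interferon-stimulated response element (ISRE) matches: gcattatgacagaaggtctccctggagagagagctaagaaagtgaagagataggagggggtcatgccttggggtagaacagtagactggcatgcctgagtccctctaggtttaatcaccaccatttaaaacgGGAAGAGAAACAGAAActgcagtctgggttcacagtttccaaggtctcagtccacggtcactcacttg
Lmbr1, chr5:29289877-29290076, an AP-1 match (TGANTCA): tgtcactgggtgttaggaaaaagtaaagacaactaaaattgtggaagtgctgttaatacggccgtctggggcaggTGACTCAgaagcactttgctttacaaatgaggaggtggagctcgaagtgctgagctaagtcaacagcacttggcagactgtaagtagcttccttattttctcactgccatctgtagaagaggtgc
Htr1f, chr16:64989587-64989786, AP-1 matches (TGANTCA): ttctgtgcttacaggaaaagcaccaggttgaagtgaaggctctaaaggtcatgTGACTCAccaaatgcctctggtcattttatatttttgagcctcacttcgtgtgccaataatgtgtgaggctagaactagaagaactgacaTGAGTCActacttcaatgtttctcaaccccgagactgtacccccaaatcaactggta
Cdc6, chr11:98889264-98889463, PU.1-IRF composite and PU.1 (GAGGAAGT) matches: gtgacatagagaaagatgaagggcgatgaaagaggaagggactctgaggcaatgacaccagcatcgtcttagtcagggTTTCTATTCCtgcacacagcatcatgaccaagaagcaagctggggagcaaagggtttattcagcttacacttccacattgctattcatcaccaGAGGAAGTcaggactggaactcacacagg
Procr, chr2:155751485-155751684, a PU.1 match (GAGGAAGT): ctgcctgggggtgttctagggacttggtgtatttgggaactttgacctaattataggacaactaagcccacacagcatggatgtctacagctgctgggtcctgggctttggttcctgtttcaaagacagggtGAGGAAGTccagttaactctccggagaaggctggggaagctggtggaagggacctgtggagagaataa

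Late regions were named after the nearest gene start in the authors' deposited annotation, which does not say that the gene is their target. The 65 regions lay at 62 places, since 3 pairs of neighbours at Slc23a2, Gng12 and Thsd7b had overlapping windows and share most of their tags, and these 62 places had 62 nearest genes on 18 chromosomes. Introns held 32 regions and intergenic sequence 29, 2 were in 3' untranslated regions, 1 in a 5' untranslated region and 1 at a promoter. The median distance to the nearest start was 30320 bp, against 19220 bp at sustained, 19150 bp at transient and 15230 bp at all regions. Only 4 late regions (6.15%) lay within 1 kb of a start, a share of 9.46% at sustained, 16.2% at transient and 20.8% at all regions. Within 100 kb, 18 late regions had no start of a protein-coding gene, and the median number of starts was 2.

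Across the late regions, median H3K27ac was 51.8 and 43.1 normalised tags in the LPS 6 h libraries, 16.0 and 12.1 at LPS 2 h, and 12.4 and 9.22 at PBS 2 h (replicates 1 and 2). Input libraries had medians of 7.70, 5.46 and 5.46 at the same windows, so the unstimulated level was low but above input. In bulk ChIP-seq, more cells carrying the mark and more mark per cell cannot be told apart. The range at LPS 6 h ran over 10.4 to 481 in replicate 1 and 12.1 to 403 in replicate 2: 16 regions averaged 100 or more and 17 averaged under 25. In raw tags the LPS 6 h libraries held 16 to 743 per region in replicate 1 and 9 to 299 in replicate 2, and 23 regions had fewer than 20 tags in at least 1 of them, so counting error is large at the low end. Sustained regions reached medians of 97.4 and 96.3 at LPS 6 h, and transient regions 15.9 and 8.76.

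**Figure D1:**
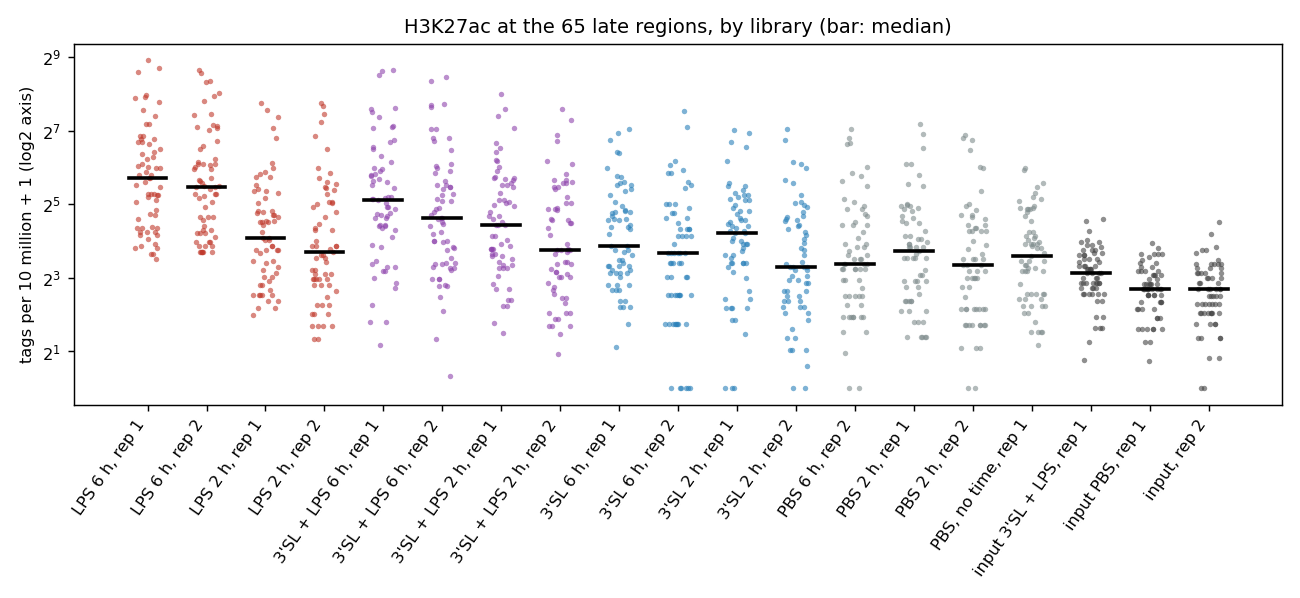
H3K27ac at the 65 late regions in each library; y axis, normalised tags plus 1 on a log2 axis; each point is a region and the bar the median. Medians are highest in the LPS 6 h libraries (51.8 and 43.1), next in 3'SL + LPS at 6 h (33.95 and 23.5), and lowest in input (7.70 or less).

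The highest late region lay between genes, 266288 bp from the start of Zfat, which encodes a zinc finger and AT-hook factor. It held 481 and 379 normalised tags at LPS 6 h, 214 and 204 at LPS 2 h, and 145 and 111 at PBS 2 h. The neighbouring pair at -23985 and -23857 bp from the start of Slc23a2, a sodium-dependent vitamin C transporter, came next. Its stronger region (chr2:132169253-132169357) held 414 and 403 at LPS 6 h, 188 and 214 at LPS 2 h, and 120 and 116 at PBS 2 h. At these 2 genes the LPS 2 h value was already above PBS 2 h in both replicates, within the limit the rule allows. Near 5830428M24Rik the values were 221 and 247 at LPS 6 h, 133 and 115 at LPS 2 h, and 66.9 and 62.3 at PBS 2 h.

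An intronic region of Lmbr1, a membrane protein gene, came next. It held 188 and 257 normalised tags at LPS 6 h, 62.3 and 30.95 at LPS 2 h, and 54.5 and 18.45 at PBS 2 h, and both LPS 6 h values were more than 3 times each LPS 2 h and PBS 2 h value. Upstream of Gng12, a G protein gamma subunit, the stronger region of a pair held 250 and 137 at LPS 6 h, 68.9 and 42.3 at LPS 2 h, and 43.8 and 24.2 at PBS 2 h. With a ratio of at least 5.45 over PBS 2 h plus 1 in either replicate it had the largest such ratio of the late regions, where the median of the lower ratio was 3.53.

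Replicates differed most at Hif3a, which encodes a subunit of the hypoxia-inducible factor family. Its region held 62.8 and 322 normalised tags at LPS 6 h, 21.97 and 151 at LPS 2 h, and 16.5 and 106 at PBS 2 h, so that LPS 6 h in replicate 1 was below PBS 2 h in replicate 2. In an intron of Htr1f, a serotonin receptor gene, the order was the opposite, with 241 and 135 at LPS 6 h, 112 and 32.5 at LPS 2 h, and 67.7 and 20.8 at PBS 2 h. The LPS 6 h values differed by 2-fold or more between replicates at 16 regions, and replicate 1 was the higher at 35 of 65.

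Fgf7 encodes a growth factor for epithelial cells, Ppp1r12b a regulatory subunit of myosin phosphatase, and Cdc6 a factor that licenses DNA replication. The region nearest Fgf7 held 146 and 225 normalised tags at LPS 6 h, 52.8 and 89.1 at LPS 2 h, and 28.9 and 63.4 at PBS 2 h. At Ppp1r12b the values were 108 and 172 at LPS 6 h, 39.8 and 56.6 at LPS 2 h, and 21.5 and 30.0 at PBS 2 h. At Cdc6 they were 98.3 and 175 at LPS 6 h, 35.03 and 47.6 at LPS 2 h, and 29.7 and 40.4 at PBS 2 h. In these 3 regions both LPS 6 h libraries lay above all LPS 2 h and PBS 2 h libraries.

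**Figure D2:**
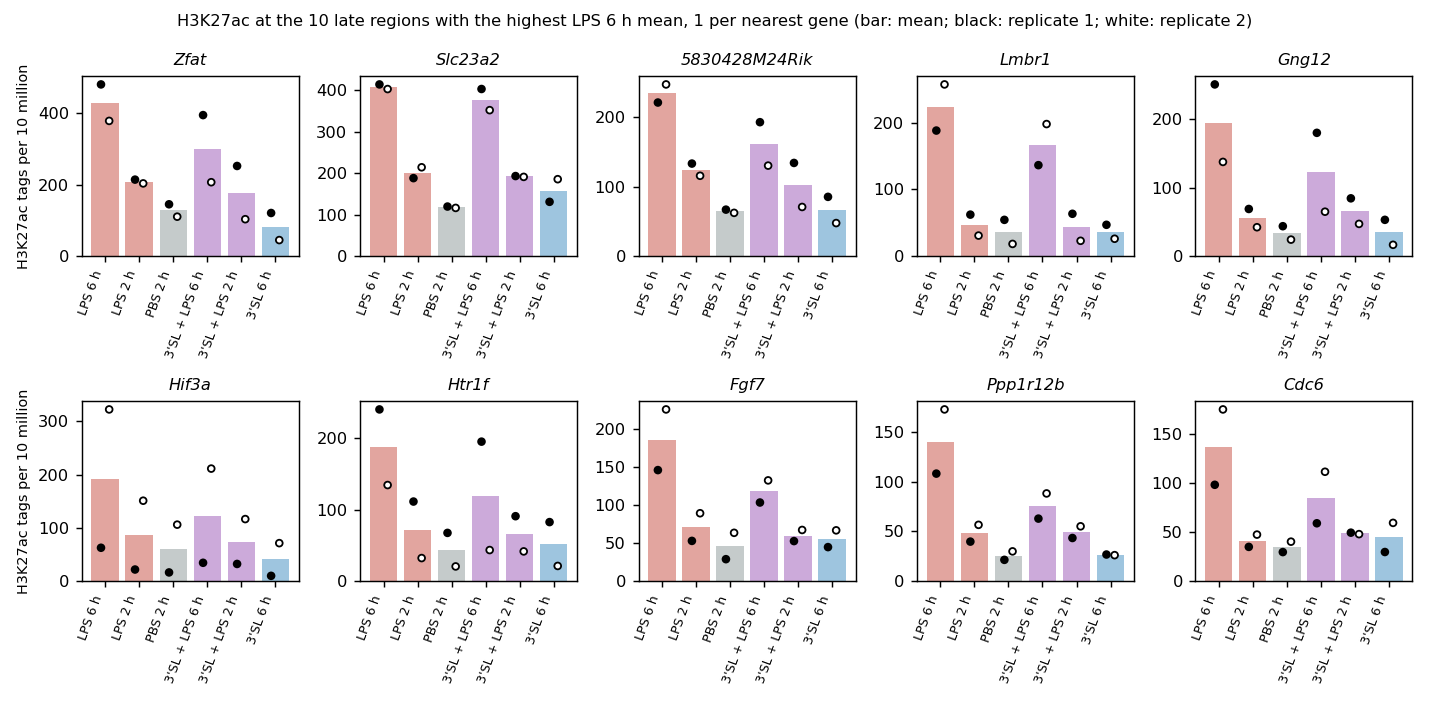
H3K27ac (normalised tags, linear axis from 0) at the 10 late regions with the highest LPS 6 h mean, 1 per nearest gene; bars are means of 2 libraries, black points replicate 1, white points replicate 2. LPS 6 h is the tallest bar in each panel, and the replicates stand far apart at Hif3a (62.8 and 322 at LPS 6 h).

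Of the 4 late regions within 1 kb of a gene start, 1 was above the median of the late regions at LPS 6 h and 3 were below it. Procr, which encodes the endothelial protein C receptor, had a region 367 bp from its start with 102 and 88.9 normalised tags at LPS 6 h, 55.8 and 46.0 at LPS 2 h, and 31.4 and 25.4 at PBS 2 h. The start regions of Lox (lysyl oxidase, which cross-links collagen), Chpf (chondroitin synthesis) and C1s2 (a complement C1s protease) held less. They had 20.05 and 17.5, 12.9 and 18.9, and 11.6 and 12.1 at LPS 6 h, against 4.95 and 3.46, 1.65 and 3.46, and 1.65 and 1.15 at PBS 2 h. These are 9 to 31 raw tags per library at LPS 6 h, and input windows over the late regions held up to 23.1 normalised tags.

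The limit of 3-fold divided regions that were otherwise alike. Just inside stood Hif3a, with a lower ratio of 3.01, and a Thsd7b region, also 3.01, with 12.9 and 14.8 normalised tags at LPS 6 h. Just outside stood regions nearest Mir98, with a lower ratio of 2.99 and 36.2 and 20.2 at LPS 6 h, and Fam170a, with 2.97 and 10.4 and 10.8 at LPS 6 h. The limit at 2 h was also close: in 44 of the 65 late regions the higher LPS 2 h ratio was above 1.5, with a median of 1.69. The rule was met by 654 regions in replicate 1 alone and by 1051 in replicate 2 alone, so most regions that met it in either replicate missed it in the other.

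Vehicle libraries that the rule had not read gave a check, although it shares the LPS 6 h values with the rule. Over PBS 6 h plus 1 in replicate 2, 47 late regions stayed at 3-fold or more and 59 at 2-fold or more, against 6.71% and 13.6% of all regions. Over the untimed replicate 1 PBS library plus 1, the counts were 49 and 57, against 8.15% and 16.9% of all regions. All 65 late regions lay above the vehicle in both checks, against 43.7% and 58.4% of all regions. Sustained regions, also chosen to be high at LPS 6 h, reached 99.9% and 100%. Of the late regions, 40 passed 3-fold in both checks. Of the 11 that missed 2-fold in at least 1 check, Ahi1 held 82.2 and 36.4 normalised tags at LPS 6 h, against 20.8 at PBS 6 h and 43.3 in the untimed PBS library. Arg1, the arginase of alternatively activated macrophages, held 14.2 and 22.9 at LPS 6 h, and Maf, a macrophage lineage factor, 33.6 and 24.25; the untimed PBS library held 8.66 at Arg1 and 16.1 at Maf.

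With 3'SL present, LPS at 6 h also gave more H3K27ac at the late regions than 3'SL alone, in libraries that took no part in their choice. Median values were 33.95 and 23.5 normalised tags in 3'SL + LPS at 6 h, 13.7 and 11.9 in 3'SL at 6 h. In replicate 2 these were the deepest and the shallowest H3K27ac library, with 39597624 and 4200716 tags. On rescaled values the median log2 change of the 65 late regions was 1.25, with 64 above 0, against 0.10 and 56.4% above 0 over the 79349 regions tested. Only the Slc23a2 pair passed limma's test at an adjusted p under 0.05, 2 late regions of 65, where 0.517% of all tested regions were called higher; 22 had an unadjusted p under 0.05, against 10.9% of all. DESeq2 called 5 of the late regions it could test, against 2.76% of all, and edgeR 1, against 0.342%. The 2 regions rose by 1.68 ± 0.29 and 1.44 ± 0.27 on the log2 scale (SE, adjusted p = 0.0325 and 0.0433), higher in both 3'SL + LPS libraries than in both 3'SL libraries. Leaving out any of the 4 libraries, or keeping the authors' scaling, ended both calls.

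The replicate numbers paired the libraries, and fitting them as a block raised the count to 24 late regions at 22 places, against 6.37% of all tested regions called higher (23 in edgeR with the block, against 5.81%). Among them were Zfat, with a log2 change of 2.11 ± 0.31 (SE, adjusted p = 0.000621 in limma with the block), Hif3a with 1.79 ± 0.30 (0.00158), Lmbr1 with 2.37 ± 0.46 (0.00428) and Rgl1, a Ral guanine exchange factor gene, with 2.26 ± 0.45 (0.00489). The stronger Gng12 region had 1.99 ± 0.35 (0.00214), or 1.97 ± 0.34 (0.00204) at its neighbour. Without overlap of the rescaled values, 37 of 65 late regions were higher in 3'SL + LPS than in 3'SL at 6 h and 0 were lower, against 19.7% and 13.5% of all regions.

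The course between 2 h and 6 h was also read in the 3'SL + LPS libraries; it is not set against LPS alone, where the rule fixed that course. In them the medians were 33.95 and 23.5 normalised tags at 6 h, and 20.8 and 12.5 at 2 h. The median log2 change was 0.79 with 63 of 65 above 0, against 0.02 and 51.7% over all regions tested. No late region passed limma's test, as no region did (0%); 7 had an unadjusted p under 0.05, against 4.24% of all, and DESeq2 and edgeR also called 0 late regions, against 0.465% and 0% of all. edgeR with the replicate block called 5, against 1.29% of all. In limma with the block 4 were called, against 0.873% of all regions: the Slc23a2 pair (1.24 ± 0.22 and 1.12 ± 0.21), Lmbr1 (2.22 ± 0.46) and Olfr99 (2.60 ± 0.52), a region at -5107 bp from an olfactory receptor gene start, with adjusted p from 0.0165 to 0.0315.

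At Lmbr1 and Olfr99 the course was steep in each 3'SL + LPS replicate. Lmbr1 held 136 and 198 normalised tags at 6 h against 63.6 and 23.1 at 2 h, and Olfr99 held 54.7 and 59.4 at 6 h against 12.8 and 7.12 at 2 h. At both the 6 h values did not overlap those at 2 h. Over all late regions that held for 23 of 65, against 16.3% of all regions, with 0 in the other direction.

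At 2 h, limma, edgeR and DESeq2 without the block called 0 late regions in 3'SL + LPS over 3'SL, although most of their log2 changes were above 0. The medians were 20.8 and 12.5 normalised tags in 3'SL + LPS, and 17.6 and 8.82 in 3'SL. The median log2 change was 0.64 with 58 of 65 above 0, against 0.02 over all regions. Without overlap of the rescaled values, 23 of 65 late regions (35.4%) were higher and 2 lower, against 22% and 17.6% of all regions. limma called 0, with 7 at an unadjusted p under 0.05, where 1.55% of all tested regions were called higher and 14.3% had such a p. DESeq2 and edgeR called 0 late regions, against 5% and 1.48% of all. With the block 8 were called, against 8.39% of all regions, a share near that of the late regions (12 in edgeR with the block, against 9.39%); Procr (1.41 ± 0.34, adjusted p = 0.00904) and 0610038B21Rik (1.47 ± 0.36, 0.0101) led. The test of whether the change by LPS was larger at 6 h than at 2 h with 3'SL present called 0 late regions and 0 of all regions in limma, with 4 late regions at an unadjusted p under 0.05 (1.7% of all) and a median difference of 0.63 on the log2 scale, against 0.07 over all regions.

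3'SL alone gave no called H3K27ac difference from the vehicle at the late regions at 6 h. The medians were 13.7 and 11.9 normalised tags in 3'SL at 6 h against 9.45 in the PBS 6 h library, and 0 of 65 were called by limma, edgeR or DESeq2, and 1 had an unadjusted limma p under 0.05, against 1.49% of all (adjusted calls over all regions, 0%). This comparison rests on 1 PBS library of replicate 2, and a missed threshold does not show that the groups were alike. The untimed replicate 1 PBS library, not part of it, had a median of 11.1.

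Beside LPS alone, 3'SL + LPS had the lower value at 6 h in both replicates at 58 of 65 late regions, but the late regions were chosen to be high in the LPS libraries, and nothing is read from that count. Sustained regions, chosen on the same libraries, had a like share (89.0%, against 89.2% at late and 29.8% at all regions). The same rule applied to the 3'SL, 3'SL + LPS 2 h and 3'SL + LPS 6 h libraries found 16 regions, of which 3 were late regions: 18.8% of the 16 and 4.62% of the 65. They were 1 of the Slc23a2 pair, Lmbr1 and Olfr99. At those 16 regions the medians were 41.8 and 27.8 in 3'SL + LPS at 6 h and 49.8 and 37.7 in LPS at 6 h. Exceptions with higher values under 3'SL + LPS in at least 1 replicate were Procr (107 and 44.95, against 102 and 88.9 in LPS) and Olfr99 (54.7 and 59.4, against 89.3 and 47.2 in LPS), and 5 more.

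**Figure D3:**
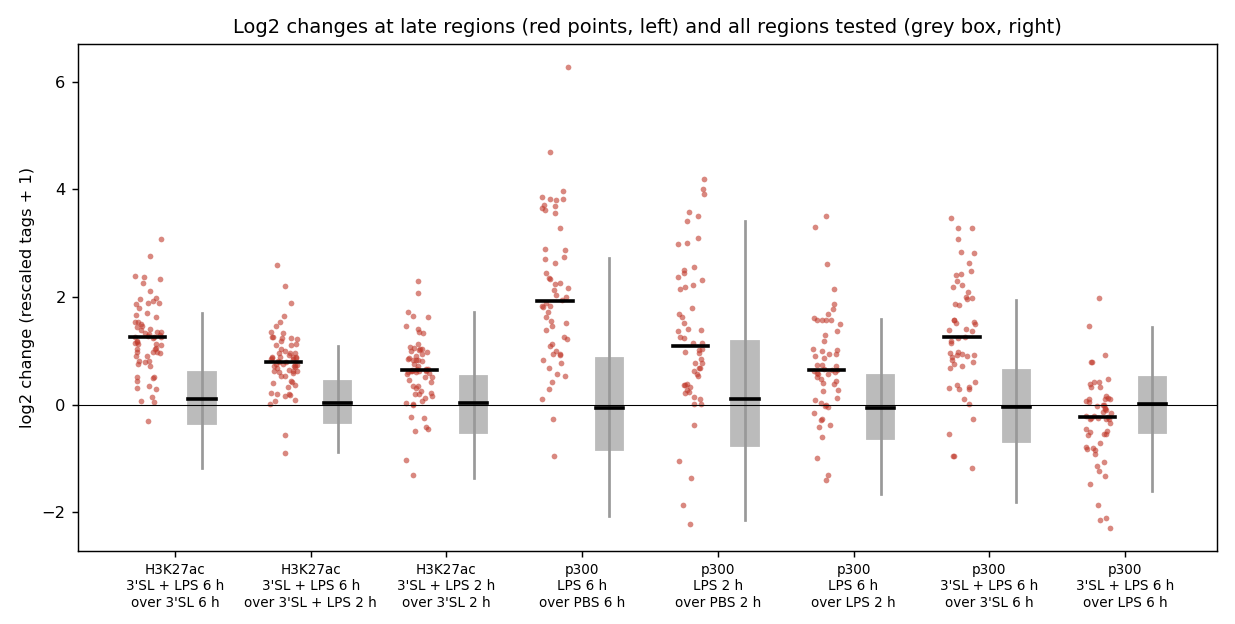
Log2 changes in comparisons that the choice of regions did not use, from limma on rescaled tags plus 1; red points are late regions (65 for H3K27ac, the 56 that passed the low-value filter for p300) with their median, grey boxes the quartiles and lines the 5th to 95th percentiles of all regions tested. The late regions' medians are 1.25 for H3K27ac in 3'SL + LPS over 3'SL at 6 h and 1.92 for p300 in LPS over PBS at 6 h, and lie near 0 for p300 in 3'SL + LPS over LPS at 6 h (-0.22).

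The acetyltransferase p300, measured in other libraries, was also higher at the late regions under LPS. Its values below are tags in 200 bp windows rescaled between libraries. Medians over the 65 regions were 17.2 and 20.6 at LPS 6 h, 13.4 and 11.4 at LPS 2 h, 4.12 in the single PBS 6 h library and 4.08 in the single PBS 2 h library. The median over all regions was 5.69 to 6.69 in the same libraries. At 55 of 65 late regions both LPS 6 h values exceeded PBS 6 h, a share of 84.6%. The share was 88.3% at sustained, 41.2% at transient and 30.2% at all regions. At 2 late regions both values were lower, against 30.6% of all regions.

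Fitted over all 65 regions without a filter, the median p300 log2 change in LPS over PBS at 6 h was 1.81 with 60 above 0, against 0.00 and 47.9% above 0 over all regions. The 56 regions that passed the filter on low values had a median of 1.92 and 54 above 0; Hif3a, Arg1, Lox, Melk and 5 more did not pass. On the authors' own scaling the median of all tested regions moved to -0.96 and that of the late regions to 1.06, so the difference between them stayed near that of the rescaled values. limma called 0 late regions, with 26 at an unadjusted p under 0.05, where 0.4% of all tested regions were called higher and 9.65% had such a p. edgeR called 0, against 0% of all, and DESeq2 1, against 1.63%. In the PBS 6 h library 10 late regions held 0 p300 tags, as did 17.9% of all regions; with these set to a floor of 3 tags per library the median over the 65 was 1.73.

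With the replicate block 5 late regions were called, against 1.99% of all regions (7 in edgeR with the block, against 2.29%). Clip1, a microtubule plus-end protein gene, had a region with 192 and 86.0 rescaled p300 tags at LPS 6 h and 24.7 at PBS 6 h, a log2 change of 2.11 ± 0.50 (SE, adjusted p = 0.0151). Olfr99 had 77.6 and 32.7 at LPS 6 h against 3.09 at PBS 6 h (3.18 ± 0.84, 0.0326), and 0610038B21Rik had 62.5 and 44.8 against 3.09 (3.19 ± 0.71, 0.00834). Myof, a membrane repair protein gene, had 52 and 43 raw tags at LPS 6 h and 0 at PBS 6 h. Gm13986 had 4 and 59 raw tags at LPS 6 h against 1 at PBS 6 h, so its call rests on replicate 2.

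The regions with the strongest acetylation, at Zfat and Slc23a2, also had the highest mean p300 at LPS 6 h. Zfat held 226 and 391 rescaled tags at LPS 6 h, 199 and 199 at LPS 2 h, 76.2 at PBS 6 h and 83.7 at PBS 2 h. The stronger Slc23a2 region held 207 and 184 at LPS 6 h, 205 and 166 at LPS 2 h, 83.4 at PBS 6 h and 59.2 at PBS 2 h. At the stronger Slc23a2 region p300 at 2 h was near its level at 6 h. At Zfat it was higher at 6 h, mostly in replicate 2 (391 against 199). The course of p300 is not set against that of acetylation, which the rule fixed. Lmbr1 held 15.1 and 27.8 at LPS 6 h, 2.68 and 8.53 at LPS 2 h, and 10.3 at PBS 6 h, and did not pass (adjusted p = 0.62 in limma with the block). Hif3a, among the highest in H3K27ac, had 4.31 and 8.47 rescaled p300 tags at LPS 6 h, below the median of the late regions.

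At 2 h, p300 in LPS over PBS had a median log2 change of 1.00 over all 65 late regions without a filter, with 57 above 0, against 0.24 and 55.2% over all regions. At 45 of 65 both LPS 2 h values exceeded PBS 2 h, against 35.9% of all regions. limma called 1 late region of the 56 tested, Clip1 (2.50 ± 0.64, SE, adjusted p = 0.0492), where 2.15% of all tested regions were called higher; 14 had an unadjusted p under 0.05, against 14.6% of all. In the PBS 2 h library 14 late regions held 0 tags, and with these at 3 tags the median was 0.68. Clip1 held 152 and 135 rescaled tags at LPS 2 h, 24.5 in the single PBS 2 h library. This call was lost without either LPS 2 h library, with the authors' scaling, with a pseudocount of 5, without a filter, and in edgeR and DESeq2, which called 0.112% and 2.57% of all regions. With the replicate block 7 were called, against 5.63% of all regions (2 in edgeR with the block, against 3.18%), among them Clip1 (2.28 ± 0.50, adjusted p = 0.00332), a Slc23a2 region (2.05 ± 0.50, 0.0076) and 0610038B21Rik (2.98 ± 0.71, 0.00635).

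From 2 h to 6 h of LPS, p300 was higher without overlap at 32 of 65 late regions, against 14.1% of all regions, and was lower at 2, against 16.1%. The median log2 change over all 65 was 0.63, against -0.04 over all regions, yet limma, edgeR and DESeq2 called 0 late regions and limma 0% of all regions, with 6 late regions at an unadjusted p under 0.05, against 5.03% of all. With the block limma and edgeR also called 0, against 0.0466% and 0.0771% of all. Comparing same-numbered replicates, p300 was higher at 6 h in both at 39 late regions (60.0%), against 13.9% of sustained and 22.2% of all regions. At Lmbr1 and at Fgf7 (75.4 and 108 rescaled tags at LPS 6 h against 21.4 and 41.2 at LPS 2 h) the values did not overlap. The test of a larger p300 change by LPS at 6 h than at 2 h called 0 late regions in limma, with 5 at an unadjusted p under 0.05, against 4.21% of all (adjusted calls over all regions, 0%).

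**Figure D4:**
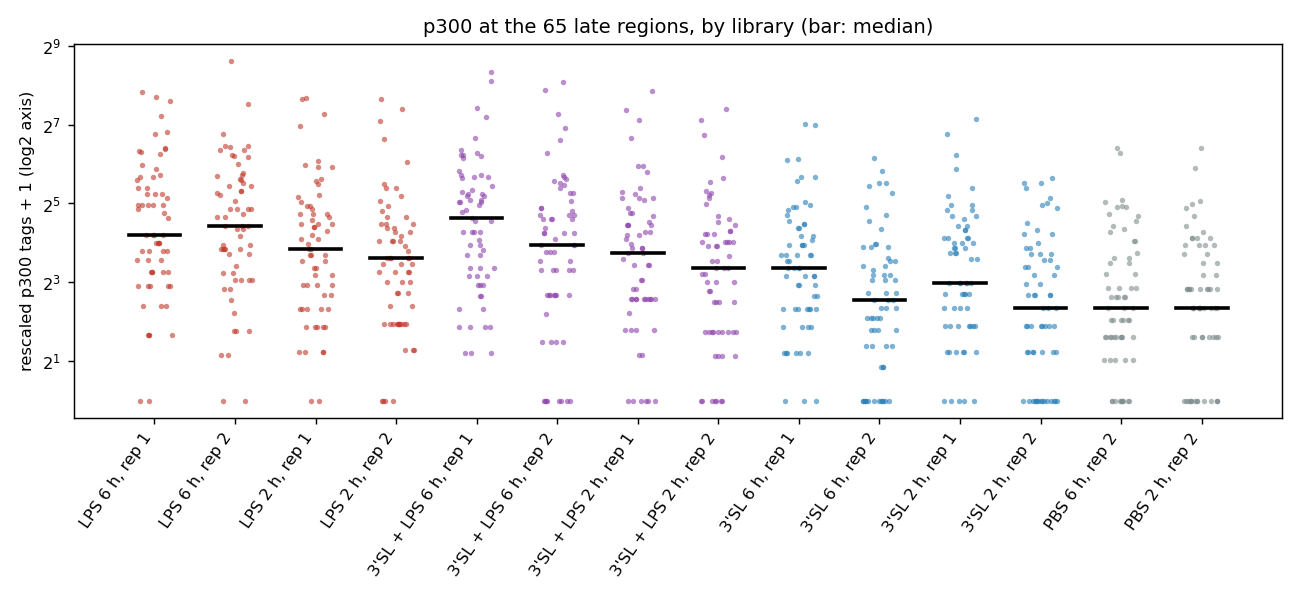
p300 at the 65 late regions in each library; y axis, rescaled tags in 200 bp plus 1 on a log2 axis; each point is a region and the bar the median. Medians are 17.2 and 20.6 at LPS 6 h, 23.8 and 14.3 in 3'SL + LPS at 6 h, and 4.12 and 4.08 in the PBS libraries.

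In the 3'SL libraries the p300 medians were 23.8 and 14.3 rescaled tags in 3'SL + LPS at 6 h, 9.24 and 4.87 in 3'SL at 6 h. The median log2 change was 1.14 over all 65 without a filter, with 56 above 0, against -0.07 and 46.3% over all regions. limma called 0, with 19 at an unadjusted p under 0.05, where 0.215% of all tested regions were called higher and 8.65% had such a p. DESeq2 called 1, against 2% of all, and edgeR 0, against 0.157%. With the block 10 at 9 places were called, against 2.06% of all regions (11 in edgeR with the block, against 2.61%), led by Clip1 (2.22 ± 0.40, SE, adjusted p = 0.000896), Zfat (2.10 ± 0.42, 0.00303) and Htr1f (3.28 ± 0.76, 0.0107). Clip1 held 169 and 154 rescaled tags in 3'SL + LPS at 6 h and 50.2 and 22.7 in 3'SL at 6 h.

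Adding 3'SL to LPS gave no called p300 difference at 6 h at the late regions. The median log2 change was -0.22 at the 56 late regions tested, against 0.02 over all regions. On the authors' scaling it was 0.10, against 0.32, so the late median stayed slightly below that of all regions on both. limma called 0 late regions, with 1 at an unadjusted p under 0.05 and 0 by edgeR and DESeq2 (2.98% of all had such a p, and 0% were called). Without overlap 6 were higher and 11 lower, against 12.1% and 12.2% of all regions. Comparing same-numbered replicates, p300 was lower with 3'SL in both at 23 late regions (35.4%), against 36.6% of sustained and 21.7% of all regions. It was higher in both at 11 (16.9%), against 14.55% of sustained and 20.9% of all regions. The late shares were thus near those of sustained regions. The test of whether the difference of 3'SL + LPS from LPS changed between 2 h and 6 h called 0 late regions in limma, with 0 at an unadjusted p under 0.05, against 1.62% of all (adjusted calls over all regions, 0%). From 2 h to 6 h in 3'SL + LPS limma also called 0 (6 at an unadjusted p under 0.05 against 5.14% of all, 0 by edgeR and DESeq2, all regions 0%), with a median of 0.75 over all 65. With the block limma called 0 and edgeR 1, against 0.0546% and 0.108% of all. In 3'SL over PBS at 6 h limma, edgeR and DESeq2 called 0, and 1 had an unadjusted limma p under 0.05 (2.15% of all had such a p, and 0% were called).

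The deposited peak lists of p300, SREBP and LXR are named in the labels of libraries from macrophages given the LXR agonist GW3965, and not in those of the LPS libraries; the lists themselves name no sample. A p300 peak overlapped 29 late regions (44.6%), against 44.4% of sustained, 29.4% of transient and 33.3% of all regions. A peak of SREBP, the factor of sterol synthesis, overlapped 17 (26.2%), against 22.4%, 16.2% and 21.6%, and a peak of LXR, the oxysterol receptor, overlapped 10 (15.4%), against 18.0%, 14.7% and 21.9%. Any of the 3 overlapped 31 late regions (47.7%), against 41.5% of all. All 3 factors had a peak at both Slc23a2 regions, Fgf7, Cdc6, Rab31, Adra1a and Ext1. The deposited p65 list was not used for overlaps, since 329 of its 41220 positions lay past the end of a GRCm38 chromosome, which no position of the other lists did.

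Long terminal repeats of endogenous retroviruses held 12 late regions (18.5%), each at a place of its own. The share was 8.47% at sustained, 11.8% at transient and 7.03% at all regions. Of the 12, 9 were of the ERVL-MaLR family, 13.8% of the late regions against 4.31% of all regions: elements of the ORR1 type at Slc23a2, Gng12, Fgf7 and Arg1, and of the MT type at 5830428M24Rik, Cdc6, Rab31, Ptchd1 and Epb41l2. The remaining 3, at Fam168a, Ifi214 and Rnf7, were of the ERVK family. LINE and SINE elements held 3 and 2 late regions. Of the 12 long terminal repeats, 7 had a p300 peak, 5 an SREBP peak and 4 an LXR peak. No test was made of these shares, which rest on few regions.

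**Figure D5:**
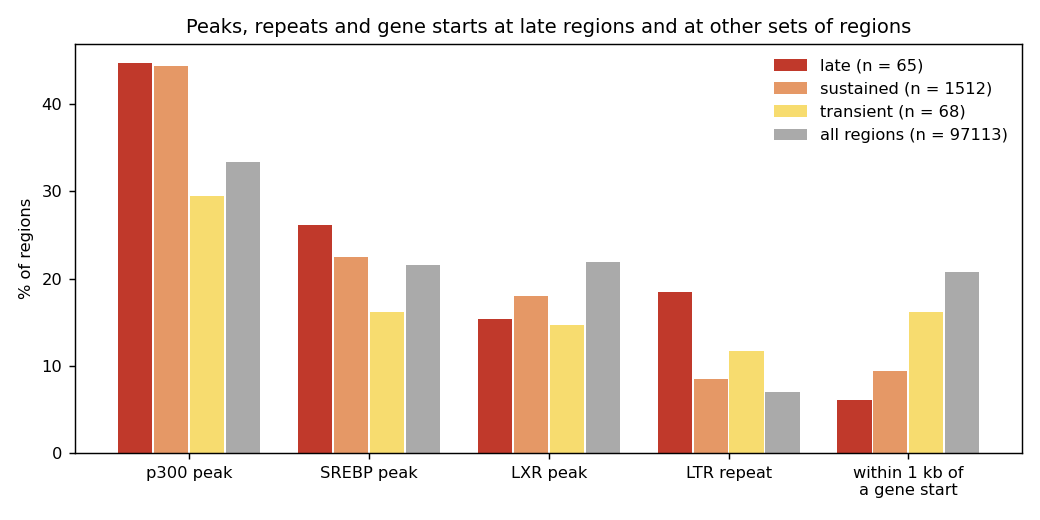
Share of regions (%, axis from 0) with a p300, SREBP or LXR peak, in a long terminal repeat, or within 1 kb of a gene start, for late, sustained, transient and all regions. Late regions reach 44.6% for p300 peaks, 18.5% for long terminal repeats and 6.15% near starts.

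The late regions were weakly scored in the list of open regions, which came from other untreated and Kdo2-lipid A treated macrophages. Their median percentile in its score was 37.1, against 49.2 for sustained and 57.3 for transient regions, and ran over 1.27 to 92.2. Zfat, highest in H3K27ac, stood at percentile 10.9, and Lmbr1 at 79.6. The median GC content of the 200 bp around the centre was 46.0%, against 49.5% at all regions, and the mean number of CpG 2.46 against 5.36; the Chpf and Lox start regions had 25 and 17.

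Motifs were searched on both strands of the same 200 bp. AP-1 (TGANTCA) was found at 12 late regions (18.5%), against 22.02% of sustained and 17.2% of all regions. The C/EBP letters (TTGCNNAA) were at 9 (13.8%), against 16.2% and 10.3%, and PU.1 (GAGGAAGT) at 8 (12.3%), against 7.67% and 9.69%. An ISRE was at 5 (7.69%), against 8.80% and 3.25%: the Slc23a2 pair, whose windows share the match printed above, Mknk1, Fam49a and 1700019M22Rik, so 4 places in all. The NF-kB letters were at 1 late region, Clip1 (1.54%), against 4.89% of sustained and 0.640% of all regions. The PU.1-IRF composite overlaps the ISRE letters at Slc23a2 and was at 3 late regions (4.62%), against 4.70% and 4.34%. The 5-letter core ACGTG bound by HIF was at 6 (9.23%), against 8.86% and 11.4%; TGTGGTT of RUNX was at 3 and CACGTG at 1, which also counts for ACGTG. The letters TTCCNGGAA, TGACGTCA, the LXR repeat and the MAF palindrome were at 0 late regions, and 28 late regions held none of the letters searched.

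The genes nearest the late regions were rarely in the 12 lists of response and identity genes examined: 2 of 65 late regions (3.08%), against 1.99% of all regions, a share too small for the zeros below to say anything particular to the late regions. In 10 lists no late region was nearest to a member, among them 31 interferon response genes, 29 NF-kB inflammatory genes and 29 late LPS response genes with an open region. Sustained regions lay nearest to 16, 21 and 13 genes of those lists, and 10.9% of them to a gene of any list. The exceptions were Arg1 in the arginine list and Maf in the macrophage identity list, and neither region had a start of a protein-coding gene within 100 kb. In 3'SL + LPS over 3'SL at 6 h, limma called 9 of 156 regions near interferon genes higher. It called 18 of 323 near NF-kB genes and 8 of 216 near late response genes higher. In these lists 0 were called lower, and 0.517% of all tested regions were called higher. Tlr4, the LPS receptor, was the nearest annotated start to a late region 620470 bp away, with 51.8 and 70.1 normalised tags at LPS 6 h against 15.7 and 19.6 at PBS 2 h.

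A start region other than a late region was open for 40 of the 62 nearest genes. At 3 of these (7.5%), H3K27ac at LPS 6 h was at least 2-fold over PBS 2 h plus 1 in both replicates, and at 0 it was 2-fold lower, against 2.18% and 2.67% of the open starts of all genes. Slc23a2 held 217 and 220 normalised tags at its start at LPS 6 h, against 89.2 and 56.5 at PBS 2 h. Rgl1 held 223 and 102 at LPS 6 h, against 48.7 and 6.92 at PBS 2 h, and 2310043L19Rik held 274 and 309 against 43.8 and 51.9. At LPS 2 h the start of Rgl1 already held 155 and 55.85 and that of 2310043L19Rik 173 and 228. Both starts thus met the limits of sustained regions, not of late ones. The start of Slc23a2 held 112 and 117 at LPS 2 h. In 3'SL + LPS over 3'SL at 6 h only the start of 2310043L19Rik was called higher of 39 tested, against 0.21% of the starts of all genes (2.54 on the log2 scale, adjusted p = 0.0101 in limma). The start of Zfat held 392.04 and 539 at LPS 6 h, against 412 and 632 at PBS 2 h, and those of Maf and Tlr4 likewise did not reach 2-fold in both replicates.

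No late region had a sustained or transient region within 10 kb. Of all regions only 3.07% had a sustained and 0.19% a transient region that near, so these zeros say nothing particular to the late regions. A sustained region lay within 50 kb of 16 late regions (24.6%), against 9.22% of all regions. The nearest sustained region was 16427 bp from the stronger Slc23a2 region, 13640 bp from Ppp1r12b and 12486 bp from Procr. The absence within 1 kb follows in part from the rule, since overlapping windows share tags.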

How the data were processed

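The H3K27ac and p300 tables hold tags per region of a merged list of open chromatin, deposited as signal that the authors scaled to 10000000 tags per library, in 1000 bp (H3K27ac) and 200 bp (p300) windows, per the file headers. Bowtie2, HOMER, DESeq2 and mm10 are named in the submitters' processing notes; their versions are not stated. The deposited list of open regions carries a score of undefined scale, used only for ranks. Peak lists of LXR, SREBP, p300 and p65 hold positions; the p65 list is described as mm10 in the series text but holds positions past the chromosome ends of that build. 5 columns matched no sample and were not used, and the replicate 1 PBS libraries named above as unused matched no column.

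Tags were recovered by multiplying each value by its library total and dividing by 10000000 (100% of values within 0.05 of a whole number). They were rescaled by TMM on tags in regions, since p300 replicates differ in the share of tags in regions, and log2(value + 1) was fitted with limma 3.58.1 (trend, group means) over all regions passing a low-tag filter (79349 for H3K27ac with 65 late regions, 62225 for p300 with 56), with Benjamini-Hochberg adjustment over all and a threshold of 0.05. All groups entered the fit, which left 7 and 6 residual degrees of freedom. edgeR 4.0.16, DESeq2 1.42.0, other scalings, a pseudocount of 5, no filter, the replicate number as a block and leaving out each library were alternatives. The fit was tested on simulated data. The replicate numbers paired libraries: deviations from group means correlated at 0.500 to 0.775 between all 21 pairs of H3K27ac groups and 0.245 to 0.475 between all 15 pairs of p300 groups. Between replicates of a group, chi-square per degree of freedom was at least 8.34, so none was a repeat deposit.

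The late regions, lists and motifs were chosen with earlier results of these data known. Regions named with values were the 10 highest at LPS 6 h, 1 per nearest gene, those within 1 kb of a start, those nearest a listed gene and those at the threshold; the rule also named called regions in 2 comparisons, where none passed. Others were chosen after their values were seen. Peaks overlapped by at least 1 bp. Sequences came from RefSeq GRCm38.p6. Python 3.11.15 and R 4.3.3 were used.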

Additional observations from a re-analysis of the deposited data

How the results depend on the processing

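The set itself depended most on its limits: it held 429 regions at 2-fold, 3 at 5-fold, 43 with at least 20 normalised tags, 21 with LPS 2 h below 1.5-fold, and 654 or 1051 when replicate 1 or replicate 2 was read alone. Read on TMM-rescaled values the rule gave 63 regions, 55 of them late regions, and with PBS 6 h as the replicate 2 baseline 68, of which 42 were late regions.

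Calls depended on whether the paired replicates were fitted as a block. With the replicate block, H3K27ac calls were 24 (23 in edgeR with the block) for 3'SL + LPS over 3'SL at 6 h, where limma without it had 2, edgeR 1 and DESeq2 5, and the authors' scaling or no filter 0. They were 4 and 5 in edgeR with the block for 3'SL + LPS at 6 h over 2 h, and 8 and 12 for 3'SL + LPS over 3'SL at 2 h. p300 calls were 5 with the block, 7 in edgeR with the block and 1 in DESeq2 for LPS over PBS at 6 h, 10, 11 and 1 for 3'SL + LPS over 3'SL at 6 h, and 7 and 2 in edgeR with the block for LPS over PBS at 2 h, where the authors' scaling, a pseudocount of 5, no filter, DESeq2 and edgeR each gave 0. edgeR with the block called 1 for p300 in 3'SL + LPS at 6 h over 2 h. The block changed no other call. Leaving out 1 library at a time gave 0 calls in every comparison except p300 in 3'SL + LPS over 3'SL at 6 h, with 0 to 1. The causes were not tested. The block with edgeR, the tests of differences between times and the rule on 3'SL libraries were chosen after seeing the data. No change of sign occurred among the 3 calls of limma without the block. A stricter peak overlap left the p300 share at 41.5%, against 38.0% of sustained and 30.4% of all regions. A wider motif window moved the C/EBP share to 24.6%, and that of sustained and all regions to 21.7% and 14.3%. At the low end, 9 to 20 tags per library limit what can be told apart.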
